A study of Rattus norvegicus with 2 samples.

Results

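Short repeat-poor lncRNAs were the 1827 of 4052 assembled long non-coding transcripts of the rat hypothalamus whose deposited sequence was 200 to 400 nt long and had less than 50% of its bases in lower case, the usual way of marking repeats. The rule used no measured values, but the transcripts were assembled from reads of this study, and 1824 of the 1827 were above 0 before puberty. They came from 1751 loci, and the other 477 lncRNAs of that length, with at least 50% lower-case bases, are called short repeat-rich here. Hypothalamic RNA of Sprague Dawley rats was sequenced at 2 stages, and the study's methods describe females, prepubertal at postnatal day 25 and pubertal at postnatal day 35, with 3 rats per stage and no other treatment. The files give 1 column per stage, called a library here, so no spread between rats could be computed, no test between the stages was made and each difference below describes these libraries. All 9 markers of hypothalamic neurons that were looked at, among them Pomc, Avp and Pmch, were above 0 in both libraries, at 2.01 to 2723 FPKM summed per gene. Their sum was 2661 FPKM before puberty and 4059 FPKM at puberty, with Pmch at 1675 and 2723, Oxt at 411 and 686, and Avp at 254 and 240 FPKM. All 4 pituitary markers were higher in the pubertal library, Prl at 0 and 3.40 FPKM, Gh1 at 0.872 and 4.09 FPKM, Tshb at 4.68 and 5.28 FPKM and Cga at 24.6 and 30.0 FPKM, and their sum was 30.2 and 42.7 FPKM. Of the choroid plexus markers, Ttr had 29.0 and 23.0 FPKM, Folr1 2.37 and 3.01 FPKM and Kcnj13 2.02 and 1.35 FPKM. The part of these marker shifts in the differences below was not tested.

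Long non-coding RNAs are transcripts above a set length that lack a recognised protein-coding frame. Some act at their own locus on chromatin or on the transcription of a neighbour, some act away from it as scaffolds or by pairing with other RNAs, and many have no known role. In the hypothalamus, the onset of puberty is marked by a rise in the pulsed release of gonadotropin-releasing hormone. Short transcripts are also a usual product of assembly from reads, either because the RNA is short or because a part of a longer RNA was assembled. Levels are in FPKM (fragments scaled by transcript length and sequencing depth), where a fragment is the piece of cDNA that a read pair comes from. In whole hypothalamus, fewer cells of a type and less RNA per cell cannot be told apart.

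The transcripts with the highest levels, the largest differences between the libraries and a transcript of a locus that the study followed by PCR are shown first, 5′ to 3′, with the longest frame from ATG to stop in capitals. The first was the member with the largest pubertal to prepubertal ratio of FPKM + 1, the next 4 were among the highest in 1 or both libraries, the sixth had the largest ratio the other way among members above 0 in both libraries, and the last was the PCR locus.
TCONS_00058324: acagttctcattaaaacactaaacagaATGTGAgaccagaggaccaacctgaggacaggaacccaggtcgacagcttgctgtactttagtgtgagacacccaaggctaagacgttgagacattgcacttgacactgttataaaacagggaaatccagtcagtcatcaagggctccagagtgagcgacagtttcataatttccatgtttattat
TCONS_00158010: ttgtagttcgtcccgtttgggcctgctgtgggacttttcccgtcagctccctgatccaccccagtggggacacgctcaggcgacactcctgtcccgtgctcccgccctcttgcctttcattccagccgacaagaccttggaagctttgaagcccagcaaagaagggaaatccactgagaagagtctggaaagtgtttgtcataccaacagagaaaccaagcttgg
TCONS_00169044: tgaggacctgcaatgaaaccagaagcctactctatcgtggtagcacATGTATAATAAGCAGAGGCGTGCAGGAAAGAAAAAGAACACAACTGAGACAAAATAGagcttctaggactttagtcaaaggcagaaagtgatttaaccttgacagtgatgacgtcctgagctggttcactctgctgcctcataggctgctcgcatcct
TCONS_00136726: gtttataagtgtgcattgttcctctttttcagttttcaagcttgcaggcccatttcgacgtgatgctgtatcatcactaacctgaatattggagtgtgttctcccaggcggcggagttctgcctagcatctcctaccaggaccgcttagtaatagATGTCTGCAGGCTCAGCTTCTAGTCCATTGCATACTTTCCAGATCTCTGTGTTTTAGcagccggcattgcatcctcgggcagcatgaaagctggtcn
TCONS_00142205: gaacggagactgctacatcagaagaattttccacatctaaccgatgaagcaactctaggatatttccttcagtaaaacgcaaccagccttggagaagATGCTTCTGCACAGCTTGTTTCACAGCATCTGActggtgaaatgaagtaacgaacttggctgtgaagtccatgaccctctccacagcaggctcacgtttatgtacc
TCONS_00018484: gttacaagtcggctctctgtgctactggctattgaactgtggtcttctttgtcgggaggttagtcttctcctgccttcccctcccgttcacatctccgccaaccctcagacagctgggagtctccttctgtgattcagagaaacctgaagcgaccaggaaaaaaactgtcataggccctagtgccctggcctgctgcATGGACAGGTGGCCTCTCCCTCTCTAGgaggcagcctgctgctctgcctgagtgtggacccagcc
TCONS_00206738: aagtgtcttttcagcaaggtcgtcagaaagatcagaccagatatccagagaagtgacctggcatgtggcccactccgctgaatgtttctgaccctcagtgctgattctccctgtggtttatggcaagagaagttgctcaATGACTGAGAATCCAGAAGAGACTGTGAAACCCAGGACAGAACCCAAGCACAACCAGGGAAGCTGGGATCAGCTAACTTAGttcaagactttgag
Capitals are few in most of them. The longest frame was 6 nt in TCONS_00058324 and 81 nt in TCONS_00206738, and TCONS_00158010 had none. The member with the highest level in both libraries, TCONS_00316969, was 234 nt long, and its last 30 bases are shown with ATG in capitals. Beyond the matching of all members to promoter windows and miRNA hairpins described below, whether it belongs to an annotated gene was not checked. No genome of the files' build was used to place it, so its level is that of an assembled transcript listed as a lncRNA.
TCONS_00316969: agcaaccccccaccactaccATGgccgagg

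The first question was how many fragments stand behind these levels. Transcripts of equal length shared a small set of FPKM values, and these were whole multiples of a smallest step, the worth of 1 fragment. The step was 22.7 FPKM at 200 nt in the prepubertal library, 2.78 FPKM at 250 nt, 0.947 FPKM at 300 nt and 0.335 FPKM at 400 nt. In the pubertal library it was 25.4 FPKM at 200 nt and 0.414 FPKM at 400 nt, which is 1.12 and 1.24 times the prepubertal step. The same FPKM therefore stands for many more fragments in a 400 nt transcript than in a 200 nt transcript. Of the 1824 members above 0 in the prepubertal library, 1713 (93.9%) lay within 0.05 of a whole number of fragments. The share was 98.4% for the 1584 members alone at their locus and 64.6% for the 240 members whose locus held other assembled transcripts, among which fragments are divided. Intervals below are at 95% (Wilson for shares) and cover counting error alone, and fragments are not known to be independent molecules.

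**Figure D1:**
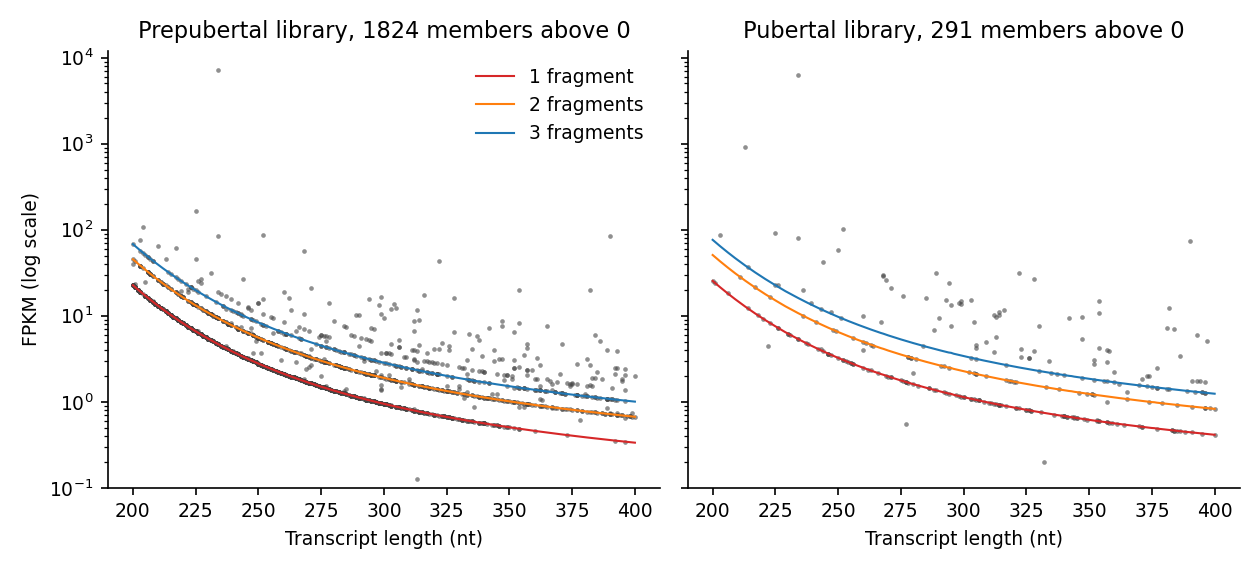
FPKM (log axis) of short repeat-poor lncRNAs above 0 against transcript length (nt) in the prepubertal (left) and pubertal (right) library, with 1 point per transcript and lines for 1, 2 and 3 fragments. Most points lie on the lines, 985 of them on the 1-fragment line on the left, and 4 pubertal values below 0.1 FPKM fall outside the axis.

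Most members rested on very few fragments. In the prepubertal library 985 of 1824 (54.0%, interval 51.7 to 56.3) had exactly 1 fragment, 410 had 2 and 170 had 3, and 1641 (90.0%) lay below 4. The members with 1 fragment had a median length of 252 nt, those with 2 a median of 281 nt and those with 3 a median of 306 nt. At least 10 fragments were reached by 39 members. In the pubertal library 125 of 291 members above 0 had 1 fragment and 38 had at least 10. Short repeat-rich lncRNAs had a like make-up, with 235 of 477 (49.3%, interval 44.8 to 53.7) on 1 prepubertal fragment. All members together held 5683 prepubertal and 2478 pubertal fragments. TCONS_00316969 alone gave 27.1% and 46.9% of these, and without it the totals were 4141 and 1317. Members took 71.7% of the summed FPKM of all lncRNAs before puberty and 63.8% at puberty, and 60.4% and 35.1% when TCONS_00316969 is left out of both sums.

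The libraries differed in which members were above 0. In the prepubertal library alone, 1535 members (84.0%, interval 82.3 to 85.6) had an FPKM above 0, while 289 (15.8%) were above 0 in both, 2 in the pubertal library alone and 1, TCONS_00082845, in neither. Of all members 1824 were thus above 0 before puberty, so the list leans to that library. This share and those below by fragment number give no support to a direction. Among short repeat-rich lncRNAs 387 of 477 (81.1%, interval 77.4 to 84.4) were above 0 in the prepubertal library alone. The share was 26.3% of 1047 lncRNAs over 400 and under 1000 nt, and 2.28% of 701 lncRNAs of at least 1000 nt, where the share above 0 in the pubertal library alone was 2.28% as well. Within the members, the share above 0 in both libraries was 6.63% at 200 to 249 nt, 12.1% at 250 to 299 nt, 25.5% at 300 to 349 nt and 40.8% at 350 to 400 nt.

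**Figure D2:**
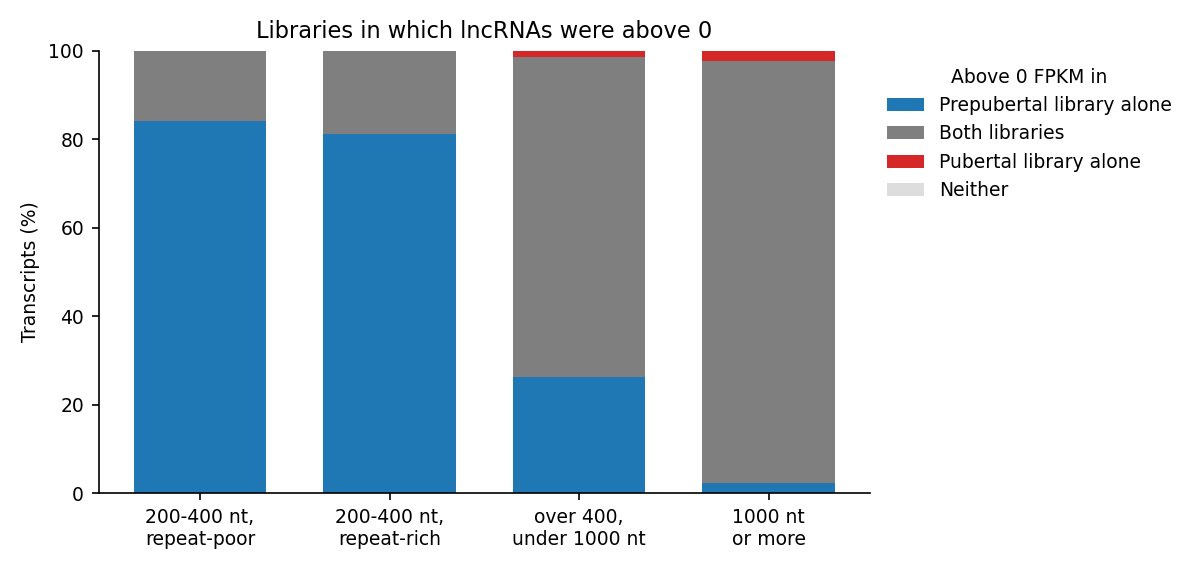
Share of lncRNA transcripts (%) above 0 FPKM in the prepubertal library alone, in both libraries, in the pubertal library alone or in neither, for 4 classes of length and repeat content. The share in the prepubertal library alone is 84.0% for short repeat-poor and 81.1% for short repeat-rich lncRNAs, against 26.3% and 2.28% for the longer classes.

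Presence at puberty followed the number of prepubertal fragments. Of the 985 members on 1 fragment, 47 (4.77%, interval 3.61 to 6.29) were above 0 in the pubertal library. The share was 14.9% of 410 members on 2 fragments, 22.9% of 170 on 3, 45.7% of 94 on 4 to 5, 77.8% of 45 on 6 to 9 and 94.9% (interval 83.1 to 98.6) of 39 on at least 10. Short repeat-rich lncRNAs gave 5.11%, 16.8%, 26.2%, 54.5%, 76.5% and 100% (11 of 11) in the same classes, with intervals that overlapped those of the members in each class. Of the 1535 members above 0 in the prepubertal library alone, 938 (61.1%, interval 58.6 to 63.5) were on 1 fragment and 2 had at least 10. All 1535 together held 2456 fragments.

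**Figure D3:**
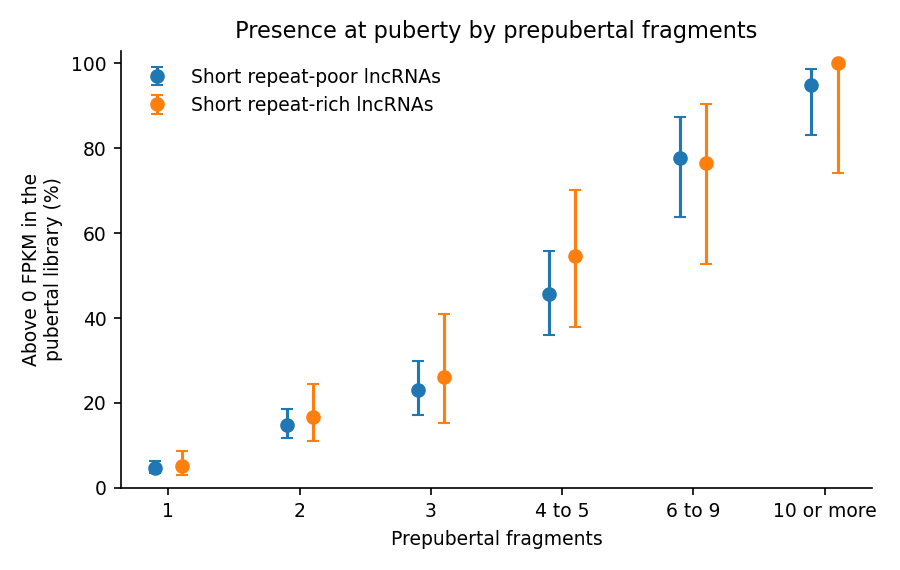
Share (%) of short repeat-poor and short repeat-rich lncRNAs above 0 FPKM in the pubertal library, by number of prepubertal fragments, with Wilson 95% intervals (counting error alone). Among the repeat-poor it goes from 4.77% at 1 fragment to 94.9% at 10 or more, and the intervals of both groups overlap at each number.

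The size of the difference between the stages was taken as log2((pubertal FPKM + 1)/(prepubertal FPKM + 1)), and a transcript at least 2-fold apart on this scale was counted. Of the members, 1369 (74.9%) were at least 2-fold lower at puberty and 20 (1.09%) at least 2-fold higher, beside 45.6% lower and 2.27% higher among all 4052 lncRNAs. With 1824 of the 1827 members above 0 before puberty, these counts give no support to a direction either. The share lower was 74.4% among short repeat-rich lncRNAs, 10.9% between 400 and 1000 nt and 1.28% from 1000 nt on. Of the 1369 lower members 1327 were at 0 at puberty and 787 (57.5%) went from exactly 1 fragment to 0. Whether such a transcript was counted depended on its length, because 1 fragment was worth at least 1 FPKM up to 296 nt. All 787 members on 1 fragment and at 0 at puberty that were no longer than this were counted, and 0 of the 151 longer ones. Of the lower members 9 had at least 10 prepubertal fragments, and of the 20 higher members 12 had at least 10 pubertal fragments.

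Among the 289 members above 0 in both libraries, 178 were lower and 111 higher at puberty. Their median log2 ratio was -0.33 (interval -0.40 to -0.20), beside -0.41 for short repeat-rich lncRNAs, -0.12 for all 1806 lncRNAs above 0 in both and -0.0043 for 18659 mRNA transcripts. It was 0.028 for those of the 289 with at least 10 fragments in 1 library. Because the list leans to the prepubertal library, the sign of the median gives no support to a direction. At least 10 fragments in at least 1 library were reached by 55 members, which held 2531 prepubertal and 2030 pubertal fragments. Of these, 22 reached 10 in both libraries, 17 did so before puberty alone and 16 at puberty alone. All 17 were lower and all 16 higher at puberty, which follows from how they passed the minimum and gives no support to a direction. Of the 22 that reached it in both, 11 were lower and 11 higher in FPKM at puberty. The exact counting intervals of the FPKM ratio given below for single members compare 2 libraries and hold no spread between rats, and the members were chosen for their levels or ratios, so an interval away from 1 is a description.

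**Figure D4:**
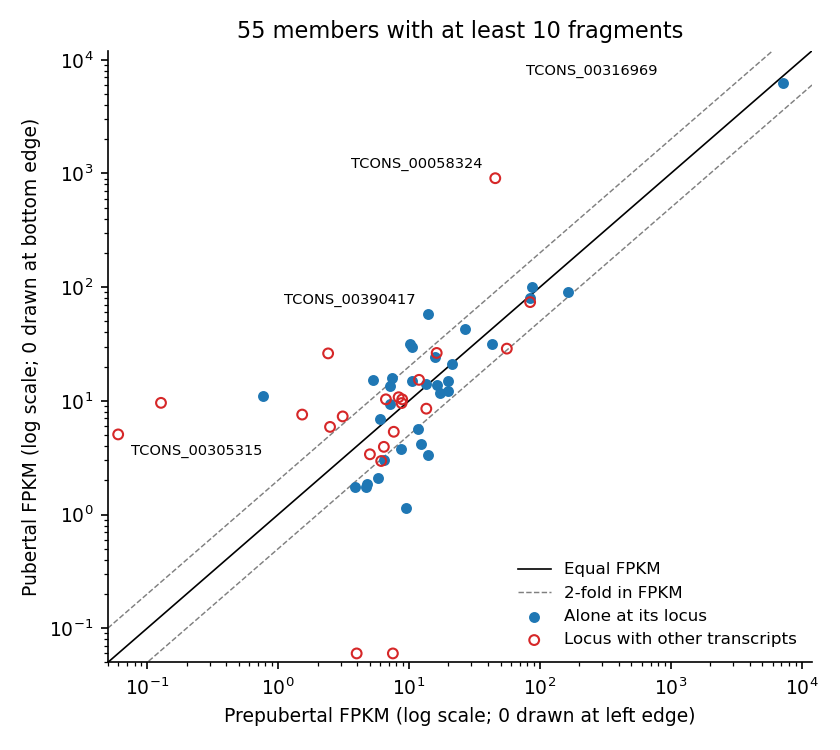
Pubertal against prepubertal FPKM (both log axes, values of 0 drawn at the edge) of the 55 members with at least 10 fragments in 1 library, with lines for equal FPKM and for 2-fold. Filled points are alone at their locus and open points share it with other transcripts. TCONS_00058324, at 45.6 and 908 FPKM, lies far above the 2-fold line, and of all 55 points 28 lie below and 27 above the line of equal FPKM, a split that the choice of members helps to set.

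At the top of the range stood TCONS_00316969 (locus XLOC_281662, 0% masked, 59.0% GC), at 7194 FPKM before and 6233 FPKM at puberty. This was 1542 and 1161 fragments, and the ratio of pubertal to prepubertal FPKM was 0.866 (interval 0.802 to 0.936). TCONS_00497303 (XLOC_440673, 390 nt) followed in fragments, with 234 and 167, or 84.2 and 73.8 FPKM, and a ratio of 0.877 (0.717 to 1.08). It shared a run of 373 nt with TCONS_00517518, a 944 nt lncRNA of the same locus at 5.70 and 5.58 FPKM, so fragments of this run fit either transcript. The next by prepubertal fragments, named after their values were seen, had lower ratios. TCONS_00107607 (XLOC_093195, 322 nt) had 42.9 and 31.8 FPKM from 62 and 38 fragments, a ratio of 0.740 (0.481 to 1.13). TCONS_00099355 (XLOC_087118, 382 nt) had 19.7 and 12.2 FPKM from 51.7 and 26 fragments, a ratio of 0.619 (0.369 to 1.004). All but the first of these intervals included 1. TCONS_00158010 (XLOC_138444, 225 nt) had 165 FPKM before and 90.4 FPKM at puberty, from 25 and 12 fragments, a ratio of 0.549 (0.251 to 1.13). TCONS_00136726 (XLOC_107302, 252 nt) had 86.6 and 101 FPKM from 33 fragments in each library. Equal fragments thus gave an FPKM ratio of 1.17, the ratio of the steps at that length.

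Further high values rested on few fragments. TCONS_00142205 (XLOC_124325, 203 nt) had 76.2 and 85.6 FPKM from 4 fragments in each library. TCONS_00169044 (XLOC_149101, 204 nt) was the third highest in the prepubertal library at 108 FPKM, from 6 fragments, and was at 0 at puberty. This is 1.78-fold lower when the pubertal level is set at a floor of 3 fragments. Such folds take the other count as exact and hold no counting error, so they are not limits. TCONS_00206738, the transcript of XLOC_181783, had 4.67 FPKM before and 0 at puberty, which was 1 fragment and 0. It has the length of TCONS_00316969, at which the same step applies.

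TCONS_00058324 (XLOC_030152, 213 nt, 0% masked) had the largest ratio of FPKM + 1 towards puberty. Its level was 45.6 FPKM before and 908 FPKM at puberty, from 4.05 and 71.2 fragments, a ratio of 19.9 (interval 7.51 to 75.8). The locus also held TCONS_00031688, of 984 nt, at 4.02 and 2.64 FPKM, and both shared a run of 132 nt. The summed FPKM of the locus was 49.6 and 911. Its pubertal level was below that of TCONS_00316969 alone among the members.

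Some members with a higher pubertal level were the sole assembled transcript of their locus. The 3 given here reached 10 fragments in the pubertal library alone and were picked for their ratios. TCONS_00390417 (XLOC_346469, 250 nt, 73.6% GC) had 13.9 and 58.3 FPKM from 5 and 18 fragments, a ratio of 4.19 (1.5 to 14.4). TCONS_00296925 (XLOC_263315, 289 nt) had 10.3 and 31.4 FPKM from 9 and 23.2 fragments, a ratio of 3.06 (1.36 to 7.47). TCONS_00438883 (XLOC_380723, 314 nt) had 0.770 and 11.1 FPKM from 1 and 12 fragments, a ratio of 14.4 (2.14 to 618). The widths of these intervals show how little 1 to 9 prepubertal fragments fix the ratio. TCONS_00296925 and TCONS_00390417 were singled out here after their values were seen.

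The other large ratios towards puberty came from loci with several transcripts. TCONS_00214835 (XLOC_175478, 313 nt) had 0.127 and 9.60 FPKM, or 0.163 and 10.2 fragments, and shared 266 nt with TCONS_00214836 of the same locus. The 6 transcripts of this locus summed to 5.11 and 13.3 FPKM. TCONS_00305356 (XLOC_263853, 269 nt) had 2.41 and 26.1 FPKM from 1.41 and 13 fragments, a ratio of 10.8 (2.30 to 651), and shared 242 nt with the 2237 nt lncRNA TCONS_00297497, at 1.29 FPKM before puberty and 0 at puberty. The other transcript of that locus, TCONS_00297498, had 1.38 and 2.33 FPKM, and the locus summed to 5.07 and 28.5 FPKM. TCONS_00381258 (XLOC_337751, 276 nt) had 3.10 and 17.1 FPKM, from 2.12 and 9.84 fragments, a ratio of 5.50 (1.26 to 55.5), and its locus summed to 4.60 and 18.3 FPKM.

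In the other direction, among members above 0 in both libraries, the largest ratios of FPKM + 1 were carried by few pubertal fragments. TCONS_00018484 (XLOC_017659, 262 nt, 45.8% masked) had 16.1 and 2.36 FPKM from 8 and 1 fragments, a ratio of 0.147 (0.0033 to 1.09). TCONS_00320699 (XLOC_285189, 300 nt) had 9.47 and 1.13 FPKM from 10 and 1 fragments, a ratio of 0.12 (0.0028 to 0.841). TCONS_00284484 (XLOC_253872, 231 nt) had 31.3 and 5.98 FPKM from 6 and 1 fragments. TCONS_00287118 (XLOC_256383, 259 nt) had 3.07 and 8e-05 FPKM, a share of a fragment at puberty. It shared 184 nt with TCONS_00287119 of the same locus, at 12.3 and 3.63 FPKM, and the locus summed to 15.3 and 3.63 FPKM. TCONS_00030905 (XLOC_029423, 277 nt) had 5.12 and 0.559 FPKM from 3.56 and 0.329 fragments. Another assembled transcript of its locus, of 462 nt, had 2.26 and 3.73 FPKM, and the locus summed to 8.25 and 4.29 FPKM, a log2 ratio of -0.81 beside -1.97 for the member. With more fragments, TCONS_00053645 (XLOC_050809, 268 nt) had 55.9 and 28.8 FPKM from 32 and 14.0 fragments, a ratio of 0.515 (0.255 to 0.996). It shared 141 nt with TCONS_00053646 of the same locus, at 46.2 and 22.6 FPKM, and was chosen after its values were seen.

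Both members with at least 10 prepubertal fragments and none at puberty lay at loci with a second lncRNA. TCONS_00038573 (XLOC_036556, 365 nt, 31.5% GC) had 7.53 FPKM from 17.1 fragments, and its 0 at puberty is 4.66-fold lower at the floor of 3 fragments. Its locus partner TCONS_00038572, of 1581 nt, was at 1.12 and 1.16 FPKM, and the longest run that both shared was 9 nt. TCONS_00296651 (XLOC_263044, 389 nt) had 3.98 FPKM from 11 fragments before puberty and 0 at puberty, 2.97-fold lower at that floor. At the same locus TCONS_00305315 (397 nt) was 1 of the 2 members above 0 in the pubertal library alone, at 5.06 FPKM from 12 fragments, 4.94-fold above the floor. The pair shared an unbroken run of 358 nt, so fragments of this run fit either transcript, and each had a longest frame of 288 nt. Together they summed to 3.98 FPKM before and 5.06 FPKM at puberty, a log2 ratio of 0.28, so the listed levels of the transcripts differed far more than their locus did. The part in this of how fragments were divided between the pair was not tested.

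The other member above 0 in the pubertal library alone, TCONS_00215315 (XLOC_183511, 358 nt), had 3.86 FPKM from 6.75 fragments, 2.75-fold above the floor. It shared 177 nt with the member TCONS_00215314 of the same locus, at 11.9 and 15.3 FPKM, and 250 nt with TCONS_00208550, of 884 nt, at 3.23 and 7.06 FPKM. The sum of the locus was 16.5 FPKM before and 28.2 FPKM at puberty. Each of the 2 members above 0 in the pubertal library alone thus shared most of its length with another transcript of its locus that was above 0 before puberty.

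Of the members 1584 (86.7%) were the sole assembled transcript of their locus. At 69 loci there was more than 1 member, and 7 loci had 3, of which the first 3 by locus name are given. In XLOC_021660 the 3 members had 6.63, 1.41 and 3.68 FPKM before puberty, from 3.54, 1.46 and 1.25 fragments, and 0 at puberty. In XLOC_227216 they had 2.90, 4.40 and 6.32 FPKM before and 0.939, 3.19 and 0 FPKM at puberty, and in XLOC_229950 1.40, 2.42 and 4.12 FPKM before and 0, 0 and 1.92 FPKM at puberty. Within the first 2 of these loci each pair of members shared runs of 152 to 201 nt, so their levels are not independent. Of all members 133 shared at least 31 nt with another member of their locus and 64 with a longer lncRNA of their locus. With lncRNAs of other loci, 19 shared 31 nt on the same strand and 21 on the opposite strand.

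Levels varied on both sides of the bound on masked bases. Just inside it, TCONS_00381218 (49.8% masked) had 2.48 and 4.96 FPKM from 3 and 5 fragments, and TCONS_00249947 (49.7%) had 0.486 FPKM from 1 fragment and 0. Just outside, at 50% masked, TCONS_00146467 had 1.42 FPKM from 2 fragments and 0, and TCONS_00419582 had 4.67 and 16.1 FPKM from 1 and 3 fragments. Of the members 908 (49.7%) had no masked base.

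The sequences were then compared with those of the other lncRNAs. The median GC content of the members was 48.8% (interval 48.4 to 49.1), beside 47.8% for short repeat-rich lncRNAs and 45.7% from 1000 nt on. The ratio of observed to expected CpG, a dinucleotide kept at many promoters, had a median of 0.31 in the members and 0.39 (interval 0.30 to 0.48) in those with at least 10 fragments. The longest frame from ATG to stop had a median of 78 nt on the given strand and 75 nt on its reverse complement, and 117 members had none with a stop. A frame still open at the end of a transcript was not counted, such as that from the last ATG of TCONS_00390417. A frame of at least 150 nt was found in 234 members (12.8%). The longest, at 318 nt, were those of TCONS_00038573 and TCONS_00070724 (XLOC_062790), the latter at 1.51 and 0.999 FPKM, followed by 312 nt in TCONS_00371577 (XLOC_330935) at 1.38 and 0.850 FPKM.

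A poly(A) signal is the hexamer, AATAAA or its commonest variant ATTAAA, that directs cleavage of an RNA shortly before its 3′ end. Either hexamer stood in the last 40 nt of 100 members (5.47%, interval 4.52 to 6.61). In the first 40 nt it stood in 2.24% and in the last 40 nt of the reverse complement in 1.75%, so that it was more frequent at the 3′ end of the given strand. The share was 4.47% (3.34 to 5.94) of members on 1 prepubertal fragment, 10.7% (7.66 to 14.8) of members above 0 in both libraries and 14.5% (7.56 to 26.2) of those with at least 10 fragments. Of short repeat-rich lncRNAs 8.60% had it, of those between 400 and 1000 nt 12.0%, and of those of at least 1000 nt 15.5%. An A run of at least 8 was found in 32 members (1.75%) and a T run of that length in 19. ATTTA, the core of elements that speed the decay of many mRNAs, stood in 339 members (18.6%), and in 16.1% of short repeat-rich lncRNAs. None of the members shared 31 nt with any of 419 miRNA hairpins of RefSeq, which allows a share of up to 0.210% by the Wilson interval.

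Members were also matched to promoter windows of RefSeq (build GRCr8), which hold 250 bases before and 50 after an annotated gene start. At least 31 unbroken bases, found in windows of at most 2 genes, were shared by 109 members (5.97%, interval 4.97 to 7.15), 73 on the strand of the gene and 41 on the opposite strand. The share was 3.05% (2.14 to 4.31) of members on 1 prepubertal fragment, 14.9% (11.2 to 19.4) of those above 0 in both libraries and 29.1% (18.8 to 42.1) of those with at least 10 fragments. It was 5.66% of short repeat-rich lncRNAs, 12.3% between 400 and 1000 nt and 21.3% of those of at least 1000 nt, which have more bases to match. Members with more fragments were also longer, and the part of length in these shares was not tested.

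**Figure D5:**
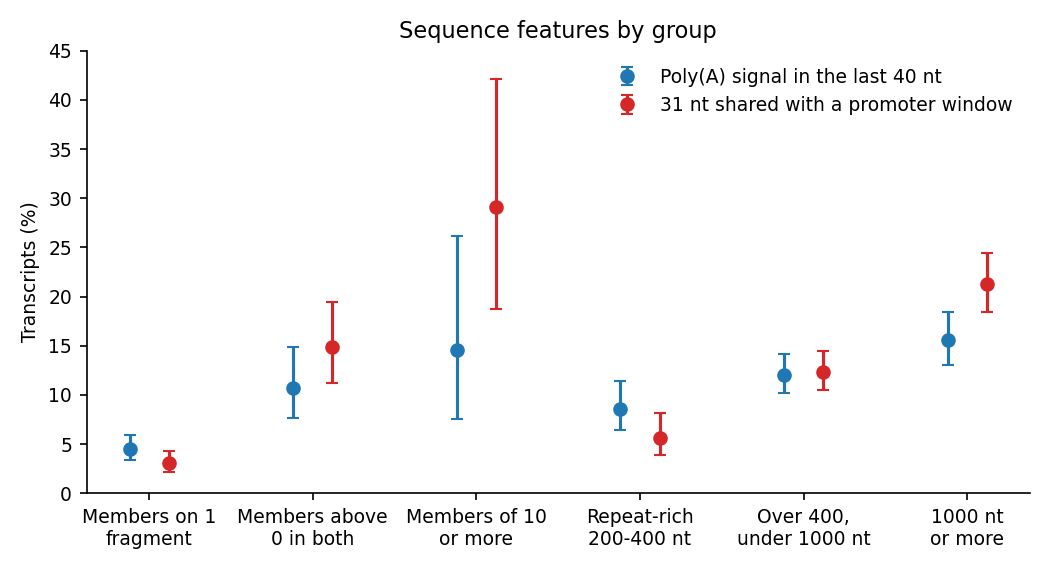
Share (%) of transcripts with a poly(A) signal in the last 40 nt and of those that share 31 nt with a RefSeq promoter window, for 3 groups of members and 3 classes of other lncRNAs, with Wilson 95% intervals (counting error alone). Among members both shares are lowest for those on 1 prepubertal fragment, at 4.47% and 3.05%, and highest for those with at least 10 fragments, at 14.5% and 29.1%.

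The matched windows belonged to 113 genes, 56 protein coding and 57 annotated as lncRNA. Of the 56, 47 were found in the mRNA table, and 42 of these were above 0 in both libraries. The protein-coding genes below are the 7 with the longest shared runs, and Rnf19b and LOC102550011 were added for their members, all chosen after values were seen. Bases before an annotated start are shown for 3 of them in the direction of the gene, with the shared run in capitals, at chr5:155752837-155753086 (plus strand), chr3:76686921-76687170 (plus strand) and chr2:176901867-176902116 (minus strand) of GRCr8.
Sh2d5: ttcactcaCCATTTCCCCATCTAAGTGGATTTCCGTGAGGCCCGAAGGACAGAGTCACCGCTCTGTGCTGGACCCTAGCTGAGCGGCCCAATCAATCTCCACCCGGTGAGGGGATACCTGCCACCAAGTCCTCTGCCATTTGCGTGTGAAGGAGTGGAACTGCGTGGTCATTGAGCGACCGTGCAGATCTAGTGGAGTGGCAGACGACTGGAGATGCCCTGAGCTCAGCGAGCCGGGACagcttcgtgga
Metap1d: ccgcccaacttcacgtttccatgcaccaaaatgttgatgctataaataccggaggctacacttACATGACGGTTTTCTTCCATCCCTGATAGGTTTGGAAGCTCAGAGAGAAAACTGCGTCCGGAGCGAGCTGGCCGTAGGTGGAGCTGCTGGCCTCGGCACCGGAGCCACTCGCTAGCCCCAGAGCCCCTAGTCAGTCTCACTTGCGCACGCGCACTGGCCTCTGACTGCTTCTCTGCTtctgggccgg
LOC102550011: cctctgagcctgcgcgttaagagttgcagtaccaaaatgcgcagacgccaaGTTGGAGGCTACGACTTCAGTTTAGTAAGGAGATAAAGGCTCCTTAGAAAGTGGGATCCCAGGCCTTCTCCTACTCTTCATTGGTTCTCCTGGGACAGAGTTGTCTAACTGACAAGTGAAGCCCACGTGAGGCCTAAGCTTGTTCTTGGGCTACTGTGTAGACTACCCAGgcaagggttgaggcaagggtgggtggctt

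Opposite to Sh2d5, which encodes an adaptor protein with an SH2 domain, TCONS_00405977 shared 231 bases, from 242 to 12 bases before the start. This member had 4.71 and 5.50 FPKM, 2 fragments in each library, and the gene 15.7 and 19.7 FPKM. Opposite to Metap1d, a mitochondrial methionine aminopeptidase, TCONS_00328873 shared 177 bases, up to 11 bases before the start. It also shared 77 bases, on the same strand, with the window of the lncRNA gene LOC102549016, which starts in the opposite direction to Metap1d. The member had 32.2 and 36.5 FPKM from 3 fragments in each library, and Metap1d 3.02 and 4.14 FPKM. Both members thus had the same number of fragments at both stages. On the strand of the lncRNA gene LOC102550011, TCONS_00284484 shared 170 bases, from 199 to 30 bases before the start, and had the 31.3 and 5.98 FPKM given above.

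TCONS_00390417, the member that went from 5 to 18 fragments, matched at a divergent pair of starts. It shared 142 bases with the window of Rnf19b, an E3 ubiquitin ligase, on the same strand, and 182 bases with that of the lncRNA gene LOC102551249 on the opposite strand. The run with Rnf19b reached 49 bases past the start, and the last ATG of the member had no stop after it. Whether the member is a part of the Rnf19b mRNA was not tested. Rnf19b itself had 8.60 and 8.85 FPKM, a log2 ratio of 0.04. TCONS_00157302 shared 228 bases on the strand of Gng2, a G protein gamma subunit, up to 49 bases past the start, and had 13.6 and 8.53 FPKM from 15.2 and 8 fragments. The mRNA of Gng2 was listed at 0 in both libraries. TCONS_00478289 shared 182 bases on the strand of Rab6b, a neuronal GTPase of Golgi traffic, and had 16.3 FPKM from 2 fragments before puberty and 0 at puberty, while Rab6b had 175 and 135 FPKM.

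The other members among these runs were lower at puberty, as were most members, 1535 of 1827 being above 0 before puberty alone. TCONS_00225060 shared 235 bases opposite to Lama3, a laminin subunit, and had 0.684 FPKM from 2 fragments before puberty and 0 at puberty, while Lama3 had 0.973 and 0.847 FPKM. TCONS_00512590 shared 204 bases on the strand of Cmklr2, a G protein-coupled receptor listed in the mRNA table as Gpr1, and had 1.54 FPKM and 0, while the gene had 0.179 and 0.913 FPKM. TCONS_00286181 shared 188 bases on the strand of Ahcyl1, a regulator of calcium release through the IP3 receptor, and had 5.16 and 1.39 FPKM, while the gene had 54.7 and 37.8 FPKM. Among matched lncRNA genes the longest run was 234 bases, opposite to LOC134479052, from TCONS_00392949 at 0.710 FPKM, the worth of 1 fragment at 320 nt, and 0.

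For 3 promoter motifs the share among the 184 windows of matched genes was set beside that among all 33469 windows, over the 250 bases before the start and on both strands. TATAAA, the TATA box, was found in 12.0% beside 12.9%, CCAAT in 39.1% (interval 32.4 to 46.3) beside 34.0%, and GGGCGG, the GC box, in 28.3% beside 30.5%. Of the windows shown, that of Metap1d held TATAAA and GGGCGG, and those of Sh2d5 and LOC102550011 held CCAAT. None of the motifs contains another, and a match describes the letters alone.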

How the data were processed

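Hypothalamic RNA was depleted of ribosomal RNA, made into strand-specific libraries and sequenced as read pairs. For alignment the authors used TopHat, and for assembly both Scripture with its defaults and Cufflinks with no minimum of fragments per transcript. They kept as lncRNAs the transcripts that Pfam-scan, CPC and CNCI called non-coding, and estimated the deposited FPKM with Cuffdiff 2.1.1. The submitters' processing notes give the build Rnor_5.0 and the methods another, so no coordinates of members are given. The tool that masked repeats is not given in the sources used here. How the 3 rats of a stage were combined is not stated. The authors also deposited fold changes, p-values and q-values of their own comparison, which were not used.

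The worth of 1 fragment at each length was taken from the FPKM alone and tested on simulated data. Ratios used FPKM + 1, folds against 0 a floor of 3 fragments, and ratio intervals exact binomial limits on fragments rounded to whole numbers. Medians have order-statistic intervals. Sequences were compared with RefSeq promoter windows and miRNA hairpins (GRCr8) by exact runs of 31 bases on both strands, and gene symbols were matched through RefSeq synonyms. Members named were the 5 highest per library, those above 0 at puberty alone, the 5 largest ratios each way among members above 0 in both libraries, the 3 longest frames, 3 of the loci with most members (ties taken by locus name), the study's PCR loci, those at the bound on masked bases, and members with at least 10 fragments. Members and lists were chosen with earlier results of these data known. Python 3.11.15, pandas 2.3.3 and scipy 1.17.1 were used.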

Additional observations from a re-analysis of the deposited data

How the results depend on the processing

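No paired analysis was possible because each stage has 1 column. Of the alternative values, 28 stayed within the interval of the reported value or within 1.5 times a reported count, and 23 moved further and 1 changed sign. The count of members at least 2-fold lower was 824 below 10% masked bases (1088 members), 215 at 300 to 400 nt (553 members), 42 among those above 0 in both libraries, and 563 and 9 with at least 2 and at least 10 fragments in 1 library, each over fewer members. The count at least 2-fold higher was 8 at 300 to 400 nt, 36 with a pseudocount of 0.1, 12 with at least 10 fragments and 10 for members alone at their locus. The share above 0 in the prepubertal library alone was 68.7% at 300 to 400 nt, 75.8% for FPKM of at least 1, 86.5% for members alone at their locus, and 68.8% and 3.64% with at least 2 and at least 10 fragments. The median log2 ratio of members above 0 in both libraries was -0.55 with a pseudocount of 0.1, -0.20 at FPKM of at least 1 in both, and turned to 0.028 with at least 10 fragments, where members were chosen by their level in either library and the cause was not tested. A poly(A) signal was found in 3.78% for AATAAA alone, 18.1% anywhere in the transcript and 14.5% with at least 10 fragments. Runs were found in 7.99% for 6 A and 1.04% for 8 T. With at least 10 fragments the median GC content was 50.8% and the median frame 84 nt. Alternatives on fragment numbers and on members alone at their locus were chosen after seeing the data. Scaling the pubertal FPKM by 1.04, to equal medians, was run for both 2-fold counts and the median log2 ratio and moved none of these beyond the limits. Presence before puberty rests on 1 fragment for 985 members.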
